A study of Mus musculus with 12 samples.

Results

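The 8 genes described here carry the main steps of MHC class II antigen presentation: H2-Aa, H2-Ab1, H2-Eb1, Cd74, Ciita, H2-DMa, H2-DMb1 and Ctss. They were chosen by name, from known function, among 47729 gene identifiers, and all 8 were among the 16823 genes with enough counts to test. Their RNA was measured by RNA-seq of whole liver from 12 male C57BL/6 mice, 4 in each of 3 groups. Healthy mice were wild-type, kept the normal diet and were given vehicle. STAM-vehicle mice were a chemical and dietary model of non-alcoholic steatohepatitis (NASH), made with a single injection of 200 µg streptozotocin at day 2, which destroys pancreatic islets, and a diet with 60% of its energy from fat from week 4. STAM-I-BET151 mice had the same injection and diet and were given 10 mg/kg of I-BET151 by mouth each day from week 6 to week 9. I-BET151 is a small molecule that binds the bromodomains of the BET proteins, which read acetylated histones at active genes. The vehicle was methylcellulose and I-BET151 was suspended in hydroxypropyl methylcellulose with a Tween detergent, so the drug and its suspension cannot be told apart.

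MHC class II molecules hold peptides from engulfed protein on the cell surface, where CD4+ T cells read them. Dendritic cells, B cells and macrophages make them constantly or on activation, and in liver the Kupffer cells, the resident macrophages, are among the presenting cells. H2-Aa and H2-Ab1 encode the alpha and beta chains of I-A, the class II molecule of C57BL/6 mice. H2-Eb1 encodes the beta chain of a related molecule, I-E, which C57BL/6 mice do not display because their alpha chain gene is defective. CD74, the invariant chain, fills the groove of the new molecule and steers it to the endosome. Cathepsin S (Ctss) then cuts the invariant chain, and H2-DM (H2-DMa and H2-DMb1) exchanges the remaining fragment for a peptide. CIITA, encoded by Ciita, is the transactivator that the antigen-binding chains, Cd74 and H2-DM depend on for transcription, and interferon-gamma induces it in cells that do not express it at rest.

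CIITA does not bind DNA itself but docks on factors (RFX, CREB, NF-Y) that sit side by side on class II promoters. The promoter sequence is shown for members whose 250 bases before the transcription start hold a GNAACT, as in the X box bound by RFX, followed after 20 to 30 bases by a GATTGG, as in the Y box bound by NF-Y. These letters were chosen after the sequences had been read, and both strands of every window were searched. The capitals mark these 2 boxes, and each sequence runs 5′ to 3′ on the strand of the gene (RefSeq, build GRCm38.p6). Ctss had neither box and is shown for another element, which the capitals mark in its line.
H2-Aa, chr17:34287857-34287914, minus strand: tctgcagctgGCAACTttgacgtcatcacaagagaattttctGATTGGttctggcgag
H2-Eb1, chr17:34305766-34305822, plus strand: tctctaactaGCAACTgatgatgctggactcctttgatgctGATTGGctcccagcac
H2-DMb1, chr17:34153087-34153144, plus strand: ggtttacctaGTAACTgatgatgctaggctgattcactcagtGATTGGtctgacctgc
Ctss, chr3:95526740-95526784, plus strand, with GAAA, any 2 bases and GAAA in capitals, as in elements bound by interferon regulatory factors: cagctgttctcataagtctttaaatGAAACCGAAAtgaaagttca
The boxes lay 26, 25 and 26 bases apart in H2-Aa, H2-Eb1 and H2-DMb1, and the second box ended 43, 54 and 56 bases before the start. The pair was found in 60 of 32851 promoter windows of the same length (0.183%), whereas GATTGG alone was in 14.6%, GNAACT alone in 37.3% and the element of Ctss in 2.98%. The windows of 5 of the 8 members were read, and H2-DMa had neither the pair nor the interferon element. H2-Ab1, Cd74 and Ciita were not analysed here. A match of letters is a description of the window and not evidence that a factor binds there.

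The antigen-binding chains and both H2-DM genes lie together on mouse chromosome 17 (GRCm38), with H2-DMa at 34119541 to 34139101, H2-DMb1 at 34153072 to 34160230, H2-Ab1 at 34257689 to 34269419, H2-Aa at 34282744 to 34287823 and H2-Eb1 at 34305867 to 34316674. Ciita lies on chromosome 16 (10480059 to 10528418), Ctss on chromosome 3 (95526786 to 95556403) and Cd74 on chromosome 18. Some reads could belong to a neighbour. Exons of H2-DMa overlap those of Brd2, a BET gene on the opposite strand (6.54% of the 101-base windows of H2-DMa occur in both), 11.2% of the windows of H2-DMb1 also occur in H2-DMb2, and 0.314% of those of Ciita in Dexi. The library kit kept the strand, but the strand setting of the counting was not given in the sources used here.

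The total count per liver lay between 34711229 and 53365596, and member counts between 34 (Ciita) and 6076 (Cd74). The liver of STAM-I-BET151 mouse 3 stood apart from the other 11. Its normalization factor was 1.61, against 0.770 to 1.11, its 10 most abundant genes took 7.95% of the counts, against 13.5% to 18.05%, and its 4 hepatocyte marker genes (Alb, Apoa1, Ttr and Tat) summed to 16712 CPM (counts scaled to library size), the highest sum in the group being 75817 CPM. The study left out 1 STAM-I-BET151 sample without naming it, so all 4 were kept and each result is given also without mouse 3. Hepatocyte markers summed to 91225 to 108870 CPM in Healthy and 41079 to 64855 CPM in STAM-vehicle livers, as fits the labelled tissue. In whole liver, fewer cells of a type and less RNA per cell cannot be told apart.

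Levels are CPM on library sizes scaled by edgeR's TMM method, as mean ± SD of 4 mice. Of the antigen-binding chains, H2-Aa stood at 44.2, 25.5, 25.7 and 30.9 CPM in the 4 Healthy livers, at 32.05, 36.3, 58.7 and 45.2 CPM in the STAM-vehicle livers and at 28.9, 14.6, 50.8 and 27.9 CPM in the STAM-I-BET151 livers. All groups overlapped, and the STAM-I-BET151 livers held both the lowest value of the study (mouse 2) and, in mouse 3, one above 3 of the 4 vehicle livers. H2-Ab1, its partner chain, stood at 24.5, 16.7, 19.1 and 20.6 CPM in Healthy, 18.9, 22.8, 35.8 and 28.1 CPM in STAM-vehicle and 17.7, 10.1, 24.99 and 13.7 CPM in STAM-I-BET151 livers. Here 3 of the 4 treated livers lay under the lowest vehicle liver, and mouse 3 lay within the vehicle range. H2-Eb1 stood at 26.4, 14.4, 16.9 and 18.7 CPM in Healthy, 20.9, 25.8, 39.3 and 30.6 CPM in STAM-vehicle and 19.3, 9.91, 29.8 and 17.7 CPM in STAM-I-BET151 livers, with the same 3 treated livers under the vehicle range.

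Cd74, the invariant chain, was the most abundant member, at 89.5, 56.6, 67.0 and 67.6 CPM in Healthy, 58.0, 69.1, 118 and 89.5 CPM in STAM-vehicle and 56.2, 39.5, 62.9 and 52.5 CPM in STAM-I-BET151 livers. The treated livers were low as a group, and even mouse 3 stayed under 3 of the 4 vehicle livers. Ciita, the transactivator, was the scarcest, at 1.45, 1.22, 0.988 and 1.44 CPM in Healthy, 1.97, 2.29, 3.04 and 2.48 CPM in STAM-vehicle and 2.13, 1.05, 3.44 and 1.59 CPM in STAM-I-BET151 livers. It was the 1 member whose Healthy and vehicle livers did not overlap, and the treated livers spanned both ranges.

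H2-DMa stood at 3.87, 2.89, 2.70 and 2.76 CPM in Healthy, 2.79, 3.58, 5.94 and 5.01 CPM in STAM-vehicle and 3.17, 2.32, 3.03 and 3.22 CPM in STAM-I-BET151 livers. The treated livers, mouse 3 among them, stayed close together, below the middle of the vehicle range. H2-DMb1 stood at 3.58, 2.86, 2.44 and 2.76 CPM in Healthy, 3.08, 3.66, 5.98 and 4.39 CPM in STAM-vehicle and 3.55, 2.71, 4.29 and 3.81 CPM in STAM-I-BET151 livers. Ctss, the protease, differed in its pattern across the treated mice, at 36.9, 30.3, 28.7 and 26.05 CPM in Healthy, 36.5, 45.0, 74.2 and 59.6 CPM in STAM-vehicle and 51.0, 30.1, 24.6 and 50.2 CPM in STAM-I-BET151 livers. Mouse 3 had the lowest Ctss of its group, although it had the highest H2-Aa, H2-Ab1, H2-Eb1, Cd74, Ciita and H2-DMb1. Within the vehicle group mouse 3 was highest for all 8 members.

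**Figure D1:**
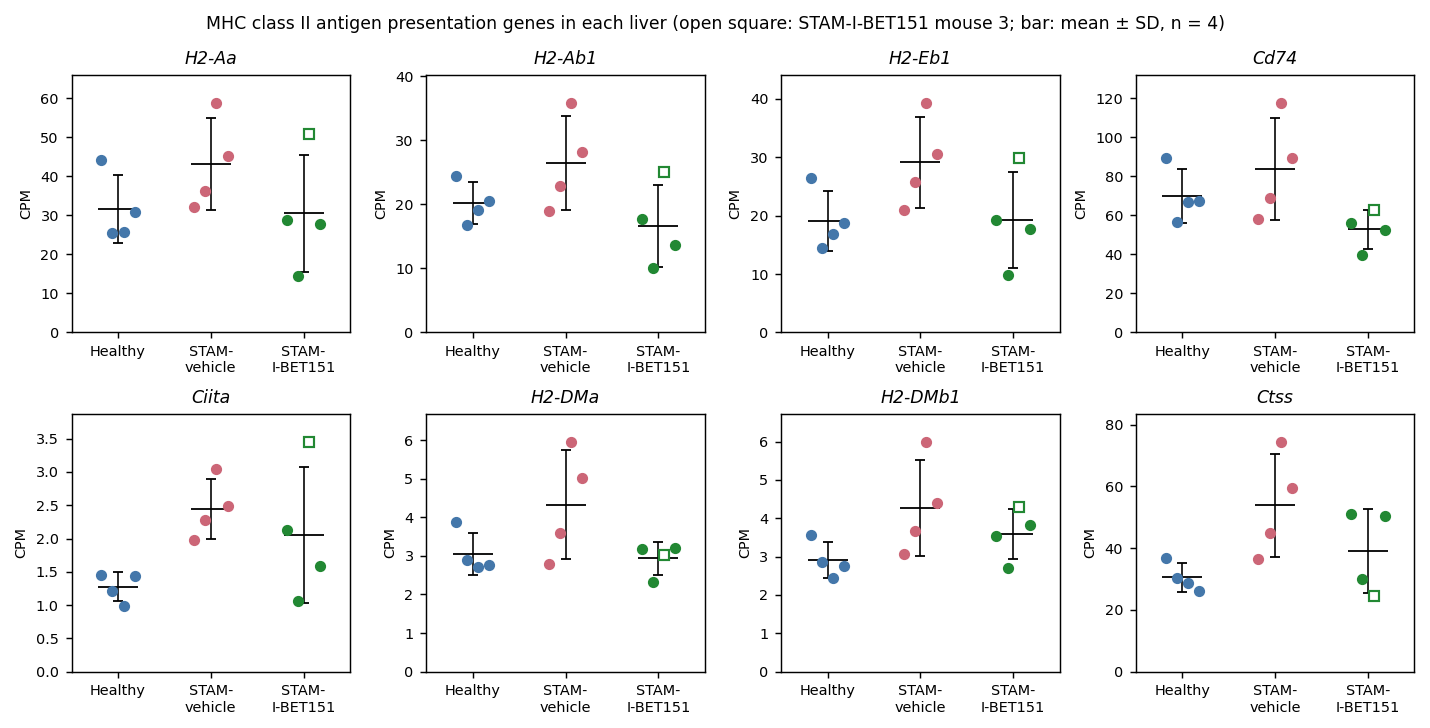
Level of each of the 8 members (y axis, CPM from 0) in every liver, by group, with points for mice 1 to 4 from left to right, an open square for STAM-I-BET151 mouse 3 and black bars for the mean ± SD (n = 4). Only Ciita separates every STAM-vehicle liver (1.97 to 3.04 CPM) from every Healthy liver (0.988 to 1.45 CPM), and no member separates STAM-I-BET151 from STAM-vehicle.

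Per kilobase of exon, with the annotated exons of each gene merged, the 8 members kept 1 order of mean level in all 3 groups with all 12 livers. In STAM-vehicle livers it ran from Cd74 (49.8 ± 15.6 CPM per kb) through Ctss (39.6 ± 12.2), H2-Eb1 (15.0 ± 4.02), H2-Aa (11.3 ± 3.11), H2-Ab1 (10.3 ± 2.85), H2-DMb1 (2.54 ± 0.747) and H2-DMa (1.26 ± 0.410) to Ciita (0.256 ± 0.0470 CPM per kb). The ranges of H2-Eb1 and H2-Aa, and of H2-Aa and H2-Ab1, overlapped in every group. Within a liver, H2-Eb1 was above H2-Aa in 4 of 4 mice of each group, and H2-Aa above H2-Ab1 in 3 of 4 Healthy, 4 of 4 STAM-vehicle and 3 of 4 STAM-I-BET151 mice. In CPM alone H2-Aa averaged 43.1 and H2-Eb1 29.2 in STAM-vehicle livers. Their order therefore depends on the exon lengths used, 3.80 kb for H2-Aa and 1.94 kb for H2-Eb1. Cd74 and Ctss overlapped in both STAM groups but not in Healthy livers, where Cd74 was at 41.8 ± 8.23 and Ctss at 22.5 ± 3.42 CPM per kb. In STAM-I-BET151 livers Cd74 exceeded Ctss in 2 of 4 mice, against 4 of 4 in each of the other groups. Without mouse 3 the means of that group were 49.4 CPM for Cd74 and 43.8 CPM for Ctss, on 1.68 and 1.36 kb of exon. Per kb the mean of Ctss then lay above that of Cd74.

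The first comparison, STAM-vehicle with Healthy liver, asks how the genes stand in the disease model. All 8 members had higher means in STAM-vehicle livers, the median of their log2 fold changes being 0.53, against 0.0089 over all 16823 genes tested. No member passed the threshold of an adjusted p of 0.05 (edgeR's quasi-likelihood test, Benjamini-Hochberg adjustment), which 7.1% of all genes passed and 5.72% as higher. At an adjusted p of at most 0.1 there were 2 of 8, where 9.23% of all genes were called higher, and at an unadjusted p under 0.05 there were 3 of 8 members and 3749 of all genes. The nearest to the threshold were Ctss, at a log2 fold change of 0.82 ± 0.26 (SE) with an adjusted p of 0.0707, and Ciita, at 0.94 ± 0.31 with 0.0869. The antigen-binding chains were at 0.45 ± 0.31 (H2-Aa), 0.39 ± 0.25 (H2-Ab1) and 0.61 ± 0.29 (H2-Eb1), with adjusted p of 0.431, 0.400 and 0.235. Cd74 had the smallest difference, 0.25 ± 0.22 (adjusted p = 0.537), and H2-DMa (0.50 ± 0.23) and H2-DMb1 (0.55 ± 0.22) lay between, at adjusted p of 0.227 and 0.160. Of the 8 members, 1 (Ciita) did not overlap between the groups, where 14.2% of all genes were higher without overlap.

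Ciita and Ctss crossed the threshold when the spread was estimated otherwise. STAM-I-BET151 mouse 3 is in neither group and enters through the shared estimate of the spread. Without it, edgeR gave an adjusted p of 0.0152 for Ciita and 0.0218 for Ctss at log2 fold changes of 0.92 and 0.80, where 12% of all genes were called higher. DESeq2 with all 12 livers gave 0.0331 and 0.0423, where 7.56% were called higher, and without mouse 3 it gave 0.00151 and 0.00385, where 12.3% were. A fit of only these 2 groups called the same pair, at 0.00860 and 0.0172, where 12.9% of all genes were called higher. Limma-voom, which gave every library a weight, called 5 of 8 members (H2-Eb1, Ciita, H2-DMa, H2-DMb1 and Ctss), where 18.9% were. The sequencing lane, taken from the lane numbers that the deposited files carry, moved with the result: with lane as a covariate the log2 fold changes of H2-Aa, H2-Ab1, H2-Eb1 and Cd74 turned to -0.35, -0.18, -0.14 and -0.13, with adjusted p of 0.789 and above. In the 1 lane with both groups, which held 1 liver of each, all 8 differences were above 0, from less than 0.01 for Cd74 to 0.76 for Ciita.

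The second comparison, STAM-I-BET151 with STAM-vehicle liver, asks what BET inhibition did to these genes in the disease model. All 8 members had lower means in treated livers, the median of their log2 fold changes being -0.53, against 0.024 over all genes tested. No member passed the adjusted p of 0.1 used for this comparison, which 0.351% of all genes passed and 0.256% as lower, and DESeq2 also called 0 of 8, where 0.962% of all genes were called lower. At an unadjusted p under 0.05 there were 3 of 8 members (Cd74, H2-Ab1 and H2-DMa), and 1460 of all genes. Cd74 came nearest, at a log2 fold change of -0.66 ± 0.22 (adjusted p = 0.371), from 83.5 ± 26.2 CPM in vehicle to 52.8 ± 9.83 CPM in treated livers. H2-Ab1 was at -0.67 ± 0.25 (adjusted p = 0.451), H2-DMa at -0.56 ± 0.23 (0.513), H2-Eb1 at -0.60 ± 0.29 (0.594) and H2-Aa at -0.49 ± 0.31 (0.715). Ctss (-0.47 ± 0.25, adjusted p = 0.652), H2-DMb1 (-0.25 ± 0.22, 0.818) and Ciita (-0.24 ± 0.30, 0.888) showed the smallest differences. The sign of all 8 was the same in each of the 22 other settings tried.

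Leaving out a single mouse moved the antigen-binding chains both ways. The weakest differences were -0.27 (H2-Aa), -0.49 (H2-Ab1) and -0.39 (H2-Eb1). The chains stood furthest from vehicle without mouse 3. Without it the log2 fold changes were -0.92 ± 0.22 for H2-Ab1, -0.88 ± 0.26 for H2-Eb1, -0.84 ± 0.27 for H2-Aa and -0.75 ± 0.22 for Cd74, and the median of the 8 was -0.67. H2-Ab1 then passed in edgeR (adjusted p = 0.0845), where 1.46% of all genes were called lower, and the other 3 were at 0.125, 0.146 and 0.126. DESeq2 without that mouse called all 4, with adjusted p of 0.00556 (H2-Ab1), 0.0303 (H2-Eb1), 0.0360 (Cd74) and 0.0447 (H2-Aa), where 4.18% of all genes were called lower. Limma-voom called the same 4 with all 12 livers, where 4.07% of all genes were called lower. Ciita moved from -0.24 to -0.60 ± 0.25 without mouse 3 (edgeR adjusted p = 0.234), H2-DMb1 to -0.34 (0.463), and H2-DMa stayed at -0.56 (0.265). Ctss moved the other way, to -0.29 ± 0.23 (0.557). By overlap, 0 of 8 members were lower in every treated liver than in every vehicle liver (2.63% of all genes were), and 4 of 8 were so without mouse 3, where 8.35% of all genes were. Those 4 were H2-Aa, H2-Ab1, H2-Eb1 and Cd74. Each of the 3 lanes that held both groups had 1 liver of each. The 4 genes were lower in the treated liver in 3 of 3 lanes, by log2 differences between -0.046 (Cd74) and -1.04 (H2-Ab1). In lane 6 the 4 differences were small, from -0.046 (Cd74) to -0.15 (H2-Aa). Of the other members, Ciita was lower in 1 of 3 lanes, with differences up to 0.18, and H2-DMa, H2-DMb1 and Ctss in 2 of 3, with differences up to 0.18, 0.20 and 0.48.

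**Figure D2:**
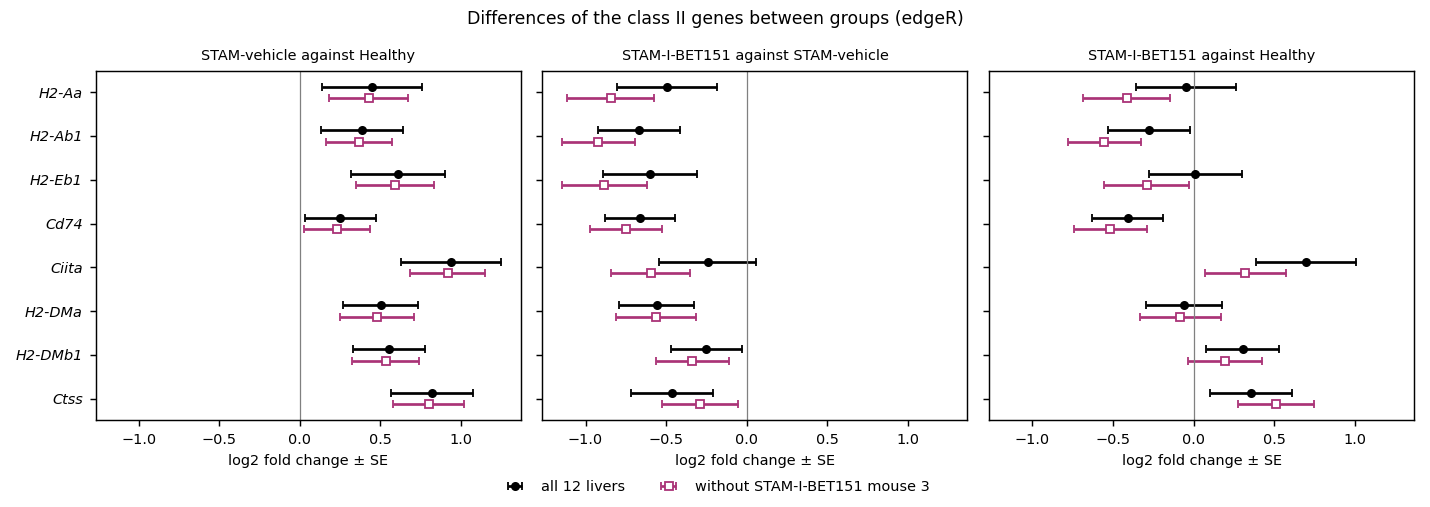
Log2 fold change ± SE (x axis) of each member (rows) in the 3 comparisons, from edgeR with all 12 livers (black circles) and without STAM-I-BET151 mouse 3 (open squares). All 8 lie above 0 for STAM-vehicle against Healthy and below 0 for STAM-I-BET151 against STAM-vehicle, and leaving out mouse 3 moves H2-Aa from -0.49 to -0.84 in the latter.

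The third comparison, STAM-I-BET151 with Healthy liver, shares its mice with both others. The means of 4 members were higher and those of 4 lower in treated livers, the median of their log2 fold changes being -0.018, against 0.061 over all genes tested. No member passed an adjusted p of 0.05, which 15.1% of all genes passed (9.88% as higher and 5.25% as lower), and 1 of 8 (Ciita) had an unadjusted p under 0.05, with 5487 of all genes. Ciita stood at 0.70 ± 0.31 (adjusted p = 0.139), and at 0.32 ± 0.25 without mouse 3. It passed, at 0.0343, without STAM-I-BET151 mouse 2, where 13.8% of all genes were called higher. Cd74 stood at -0.41 ± 0.22 (0.209) and H2-Ab1 at -0.28 ± 0.25 (0.464), and without mouse 3 at -0.52 ± 0.22 and -0.55 ± 0.22 (adjusted p of 0.121 and 0.0992). Ctss was at 0.35 ± 0.25 (0.353) and H2-DMb1 at 0.30 ± 0.22 (0.366), whereas H2-Aa (-0.047), H2-Eb1 (0.011) and H2-DMa (-0.058) were close to 0 and changed sign between settings. Without mouse 3 they stood at -0.42, -0.29 and -0.084, and the median of the 8 at -0.19. With lane as a covariate that median was -0.42. In the 2 lanes that held both groups, with 1 liver of each, H2-Aa differed by -0.66 and -1.08 and H2-Eb1 by -0.57 and -0.91. Limma-voom called 1 member higher, Ctss at an adjusted p of 0.0262, where 15.9% of all genes were.

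Ratios within a liver do not depend on library size, and they showed that the members did not move by equal amounts in STAM-vehicle livers. Relative to Cd74, 5 of the other 7 members were higher in every STAM-vehicle liver than in every Healthy liver, where 6.76% of all genes were. H2-Eb1 per Cd74 was 0.295, 0.255, 0.252 and 0.276 in Healthy and 0.361, 0.373, 0.334 and 0.342 in STAM-vehicle livers. Ciita per Cd74 went from 0.0184 ± 0.00347 to 0.0302 ± 0.00399, and Ctss per Cd74 from 0.441 ± 0.0654 to 0.644 ± 0.0175. H2-Aa per Cd74 was 0.446 ± 0.0460 in Healthy and 0.521 ± 0.0239 in STAM-vehicle livers. H2-Ab1 separated the groups only narrowly, the highest Healthy ratio being 0.304 and the lowest vehicle ratio 0.305. The 2 H2-DM genes overlapped.

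In STAM-I-BET151 livers the ratios to Cd74 spread more widely. H2-Aa per Cd74 was 0.515, 0.369, 0.807 and 0.531, with mouse 3 far above every other liver of the study, and Ctss per Cd74 was 0.907, 0.761, 0.392 and 0.957, with mouse 3 far below its group. H2-DMb1 per Cd74 was the 1 ratio that did not overlap with vehicle with mouse 3 included, at 0.0632 to 0.0726 in treated and 0.0491 to 0.0531 in vehicle livers. A ratio to Cd74 was as high without overlap for 15.7% of all genes, so 1 of 7 members was near the background. Without mouse 3, Ctss and H2-DMa per Cd74 also lay above every vehicle liver, where 39.8% of all genes did.

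**Figure D3:**
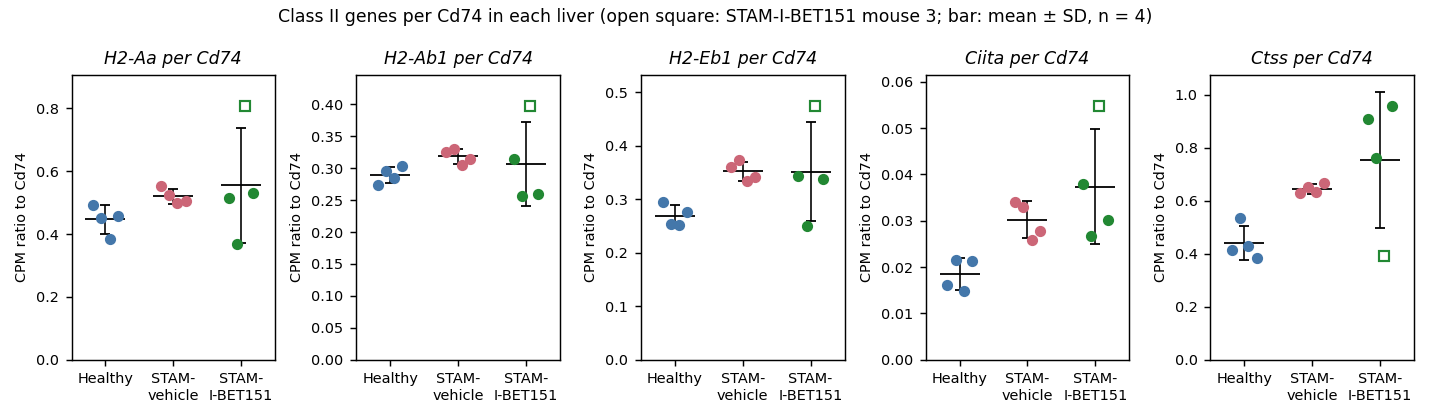
CPM ratio of H2-Aa, H2-Ab1, H2-Eb1, Ciita and Ctss to Cd74 (y axes from 0) in each liver of the 3 groups, with an open square for STAM-I-BET151 mouse 3 and bars for the mean ± SD (n = 4). The STAM-vehicle livers lie above the Healthy livers in all 5 panels, narrowly for H2-Ab1 (0.305 against 0.304), and STAM-I-BET151 mouse 3 lies at 0.807 for H2-Aa and at 0.392 for Ctss.

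Markers of the cells that present antigen were read in the same comparisons, and their part in the results above was not tested. Calls for these and the following gene lists are those of edgeR with all 12 livers unless another tool or setting is named. In STAM-vehicle against Healthy livers edgeR called 5.72% of all genes higher, DESeq2 7.56%, limma-voom 18.9% and edgeR without STAM-I-BET151 mouse 3 12%. In STAM-I-BET151 against STAM-vehicle livers the shares called lower were, in the same order, 0.256%, 0.962%, 4.07% and 1.46%. Counts of the lists are to be read beside these shares. In STAM-vehicle against Healthy livers, 4 of 11 macrophage and Kupffer cell markers rose (Cd68, Clec4f, Adgre1 and Marco), 7 of 11 with DESeq2, 10 of 11 with limma-voom and 10 of 11 without STAM-I-BET151 mouse 3, and the 11 summed to 476 to 934 CPM in STAM-vehicle and 302 to 429 CPM in Healthy livers. Cd68, a lysosomal glycoprotein of macrophages, rose by a log2 fold change of 1.10 ± 0.20 (edgeR adjusted p = 0.00482), and Clec4f, a Kupffer cell lectin, by 0.76 ± 0.19 (0.0268). Ptprc, which encodes the pan-leukocyte antigen CD45, rose by 0.92 ± 0.25 (0.0400). No dendritic cell marker of 10 passed in edgeR, with a median of 0.72, Flt3 at 1.36 ± 0.42 (0.0680) and Itgax at 1.47 ± 0.47 (0.0740). Both passed in edgeR without STAM-I-BET151 mouse 3, at 0.0174 and 0.0318, and in DESeq2 with all 12 livers, at 0.0184 and 0.0157, and limma-voom called 4 of 10. No B cell marker of 6 passed either, with a median of 0.11. In STAM-I-BET151 against STAM-vehicle livers, none of these 3 cell lists had a gene past the threshold in edgeR: the medians were -0.14 for macrophages, -0.25 for dendritic cells and -0.19 for B cells, and without mouse 3 they were 0.09, -0.59 and -0.20. The 11 macrophage markers summed to 346 to 814 CPM in treated livers, mouse 3 being the lowest. The 10 dendritic cell markers summed to 15.1 to 37.6 CPM there, mouse 3 being the highest, against 21.2 to 27.1 CPM in vehicle livers. Of 3 monocyte markers 1 rose in STAM-vehicle against Healthy livers (2 with DESeq2 and with limma-voom), and of 4 markers of sinusoidal endothelium none passed (2 with limma-voom). In STAM-I-BET151 against Healthy livers edgeR called Cd68 (0.98, adjusted p = 0.00602), Marco (2.21, 0.0137), Csf1r (0.88, 0.0317) and Clec4f (0.60, 0.0466) higher. The dendritic cell gene Batf3 (1.00, 0.0454) and the monocyte gene Itgam (1.74, 0.0463) were also called, where 9.88% of all genes were called higher. Limma-voom called Itgam higher against STAM-vehicle too (1.54, 0.0687), where 3.09% of all genes were. No defining marker of these lists was at 0 in every liver.

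The members were set against 2 macrophage genes, Csf1r, the receptor for colony stimulating factor 1, and Cd68, both chosen after their values had been seen. Csf1r averaged 119.6 CPM in treated livers without mouse 3 and 101.5 CPM in STAM-vehicle livers, and a higher Csf1r also lowers a ratio to it. For Cd68 these means were 22.05 and 22.5 CPM. Cd74 per Csf1r was 1.28, 1.14, 1.08 and 1.43 in Healthy livers and 0.757, 0.796, 0.862 and 0.841 in STAM-vehicle livers, so it was lower in every vehicle liver. H2-Ab1 per Csf1r was lower without overlap as well, 2 of 8 members in all, where 44.1% of all genes were. In STAM-I-BET151 livers Cd74 per Csf1r was 0.410, 0.455, 0.999 and 0.389, so that mice 1, 2 and 4 lay far under the vehicle range and mouse 3 above it. Without mouse 3 all 8 members had lower ratios to Csf1r in every treated liver than in every vehicle liver, where 6.77% of all genes did. With mouse 3 this held for 1 of 8, where 0.666% of all genes did. The 1 was Ctss, at 0.372, 0.346, 0.391 and 0.373 in treated and 0.476, 0.518, 0.544 and 0.560 in vehicle livers. Relative to Cd68, 6 of 8 members were lower in every vehicle than in every Healthy liver (65.2% of all genes were). Of treated against vehicle livers, 6 of 8 members were lower in every treated liver without mouse 3 (3.33% of all genes were) and 0 of 8 with it (0.589%). Per Ptprc the Cd74 ratio was 11.2 ± 3.14 in Healthy, 6.97 ± 1.01 in STAM-vehicle and 6.02 ± 1.75 in STAM-I-BET151 livers, with overlap between neighbours in that order.

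**Figure D4:**
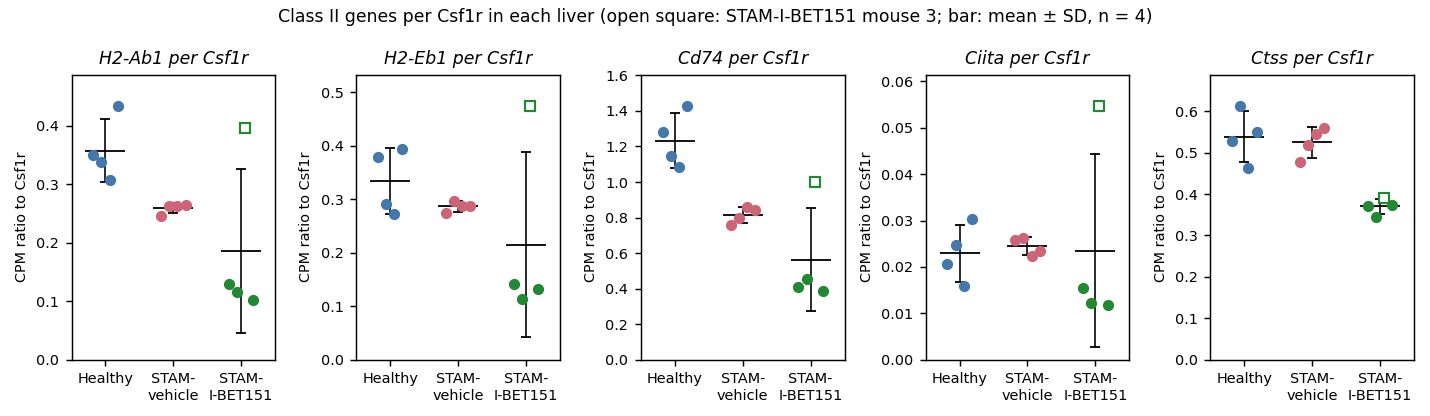
CPM ratio of H2-Ab1, H2-Eb1, Cd74, Ciita and Ctss to the macrophage gene Csf1r (y axes from 0) in each liver of the 3 groups, with an open square for STAM-I-BET151 mouse 3 and bars for the mean ± SD (n = 4). STAM-I-BET151 mice 1, 2 and 4 lie under every STAM-vehicle liver in each panel, and mouse 3 lies above the vehicle range except for Ctss, where it is at 0.391.

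Of the other class II genes, H2-Oa and H2-Ob, whose products restrain H2-DM, were low (0.0291 to 0.502 and 0.407 to 1.12 CPM) and did not pass in any comparison with edgeR, DESeq2 or limma-voom. H2-DMb2, a second H2-DM beta chain, was at 0.560 ± 0.191 CPM in Healthy, 1.18 ± 0.325 CPM in STAM-vehicle and 0.756 ± 0.238 CPM in STAM-I-BET151 livers, with a log2 fold change of 1.06 ± 0.33 for STAM-vehicle against Healthy (edgeR adjusted p = 0.0686, and 0.0291 without STAM-I-BET151 mouse 3, with DESeq2 at 0.0275). H2-Eb2, at most 0.377 CPM, had too few counts to test. H2-Ea-ps, the defective I-E alpha chain gene, had 0 counts in all 12 livers, which allows a level of up to 0.0904 CPM in the shallowest liver (3 counts, counting error only).

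Of 7 factors of the class II promoter, Nfyb, an NF-Y subunit, fell by 0.39 ± 0.10 on the log2 scale in STAM-vehicle against Healthy livers (edgeR adjusted p = 0.0349) and by 0.36 ± 0.10 in STAM-I-BET151 against Healthy livers (0.0310), and the other 6 did not pass in edgeR with all 12 livers. In STAM-I-BET151 against Healthy livers Creb1, which encodes CREB, was also called lower by DESeq2 (-0.49, 0.0400) and limma-voom (-0.48, 0.0289), and Nfya, another NF-Y subunit, by limma-voom (-0.39, 0.0377) and by edgeR without mouse 3 (-0.50, 0.0318). Of 8 lysosomal processing genes, Ctsh, a cathepsin, fell by 0.59 ± 0.16 in STAM-I-BET151 against Healthy livers (0.0239) and edgeR made no other call with all 12 livers. Without STAM-I-BET151 mouse 3, Ctsh also fell in STAM-vehicle against Healthy livers (-0.42, 0.00715), where Lgmn, a lysosomal endopeptidase, and Ifi30, a thiol reductase that breaks disulfide bonds of antigens, rose by 0.75 and 0.57 (0.0152 and 0.0290). Limma-voom with all 12 livers called the same 3 there, in the same directions, at 0.00327, 0.00137 and 0.00713. Of 5 genes of class II turnover and co-stimulation, none passed in any comparison in edgeR with all 12 livers, and 2 did in STAM-vehicle against Healthy livers without mouse 3, the co-stimulatory ligand Cd86 (0.89, 0.0288) and March8, a ubiquitin ligase (-0.38, 0.0254). With all 12 livers DESeq2 called Cd86 higher there (0.0349), and limma-voom called Cd86 (0.00647) and the co-stimulatory receptor Cd40 (0.0180) higher and March8 (0.00522) lower. Ifng, which encodes interferon-gamma, had at most 7 counts in a liver and was not tested, and none of the other 7 genes of that pathway passed in edgeR with all 12 livers. With all 12 livers no BET gene passed in edgeR, whereas limma-voom called Brd3 lower in STAM-vehicle against Healthy livers (-0.33, adjusted p = 0.0114) and Brdt higher in STAM-I-BET151 against STAM-vehicle livers (0.77, 0.0763). In edgeR without mouse 3, Brd3 fell in STAM-vehicle (-0.34, adjusted p = 0.0290) and in STAM-I-BET151 livers (-0.33, 0.0474) against Healthy, as did Brd2 in STAM-I-BET151 livers (-0.36, 0.0253).

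MHC class I genes serve the presentation of peptides from inside the cell. In STAM-vehicle against Healthy livers 2 of 9 rose, the immunoproteasome subunits Psmb8 (0.86 ± 0.15, edgeR adjusted p = 0.00362) and Psmb9 (0.81 ± 0.14, 0.00415), with a median of 0.34. DESeq2 called 3 of 9 and limma-voom 6 of 9. In STAM-I-BET151 against STAM-vehicle livers none of the 9 passed in edgeR, with a median of -0.24, and Psmb8 (-0.47) and Psmb9 (-0.38) did without mouse 3, at 0.0977 and 0.0933. With all 12 livers DESeq2 called Psmb8 lower (0.0558) and limma-voom both (0.0362 and 0.0514). Without mouse 3, 5 of 9 passed as higher in STAM-vehicle against Healthy livers, the peptide transporter genes Tap1 and Tap2 and Nlrc5 being the others. In STAM-I-BET151 against Healthy livers Nlrc5, the class I counterpart of Ciita, rose by 0.99 ± 0.25 (0.0183) and Psmb9 by 0.58 ± 0.14 (0.0160). Nlrc5 averaged 78.1 CPM in treated livers, 59.6 CPM without mouse 3 and 39.4 CPM in Healthy livers. For Psmb9 these means were 11.4, 10.3 and 7.67 CPM. With all 12 livers, DESeq2 (-0.56, 0.00633) and limma-voom (-0.44, 0.00683) called the class I gene H2-K1 lower there. Both also called Nlrc5 and Psmb9 higher, and limma-voom Psmb8 and Tap1.

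CD4+ T cells carry the receptors that read class II, and the T cell list also holds Cd8a, a marker of other T cells. In STAM-vehicle against Healthy livers Cd8a rose by 2.31 ± 0.41 (edgeR adjusted p = 0.00482), the 1 of 5 T cell markers to pass in edgeR (DESeq2 called 2 and limma-voom 4), whereas Cd3e was at 0.85 ± 0.35 (0.169). Cd4, whose product binds class II, was at 2.76, 2.13, 1.51 and 2.69 CPM in STAM-vehicle and 0.558, 0.633, 0.950 and 0.505 CPM in STAM-I-BET151 livers. It fell by 1.77 ± 0.32 on the log2 scale (adjusted p = 0.0520, under the threshold of 0.1 for this comparison) and was the 1 of 5 T cell markers to pass there in edgeR, mouse 3 included among the low livers. DESeq2 and limma-voom called Cd3e, Cd4 and Cd8a lower, with Cd4 at 3.31e-05 and 0.00453. Without mouse 3 the log2 fold change of Cd4 was -1.997 (0.0177). The call was lost with only the 2 groups compared (0.137), with the replicate block (0.173), with lane as a covariate (0.341), and without STAM-vehicle mouse 1 (0.129), 2 (0.124) or 4 (0.171) or STAM-I-BET151 mouse 1 (0.179) or 4 (0.140), at log2 fold changes between -1.64 and -1.80.

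**Figure D5:**
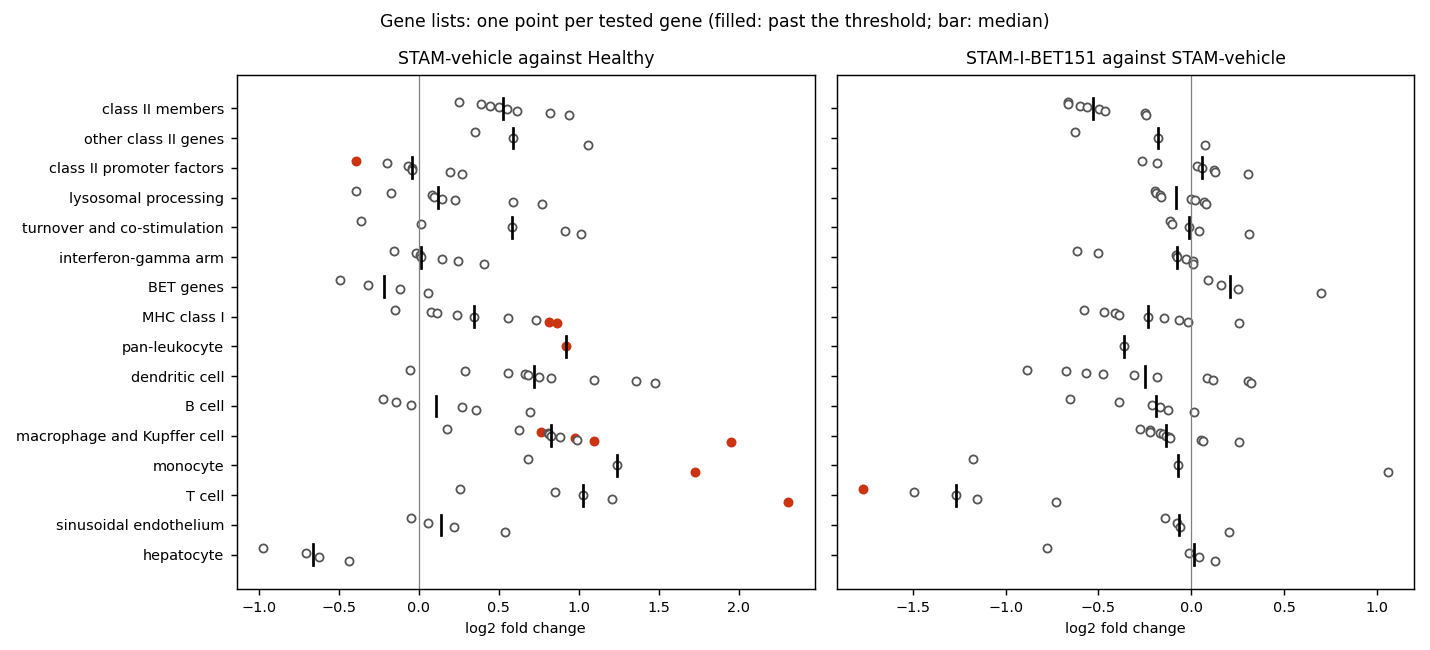
Log2 fold change (x axis) of each tested gene of the 8 members and 15 other gene lists (rows) in STAM-vehicle against Healthy and STAM-I-BET151 against STAM-vehicle livers, with filled points for genes past the threshold of that comparison and a bar for the median. The class II members have no filled point (edgeR, all 12 livers) in either panel, with medians of 0.53 and -0.53, and Cd4 at -1.77 is the 1 filled point of the second panel.

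Across the 12 livers the 4 core genes (H2-Aa, H2-Ab1, H2-Eb1 and Cd74) rose and fell together, with Pearson r of log2 CPM between 0.857 and 0.983 over their 6 pairs. This is a description over 12 livers that share groups and normalization. Against the mean of the standardized core genes, H2-DMa had r = 0.855, H2-DMb1 0.767, Ciita 0.724 and Ctss 0.482, so Ctss ranked 1593 of 16823 genes tested. Without STAM-I-BET151 mouse 3 Ctss had r = 0.635. The genes outside the members with the highest r were Gimap3 (0.941), Sdad1 (0.872), Itgb7 (0.871), Apol7c (0.870), Trbc1 (0.864), Spn (0.859), Trac (0.858), F630028O10Rik (0.858), Cxxc4 (0.856) and Rasal3 (0.852). Trac and Trbc1 encode constant regions of the T cell receptor, Itgb7 a leukocyte integrin chain and Spn the leukocyte surface protein CD43. Trac stood at 0.521 CPM in Healthy, 1.02 CPM in STAM-vehicle and 0.520 CPM in STAM-I-BET151 livers on average. Without STAM-I-BET151 mouse 3 the 10 values of r ran from 0.857 (Trac) to 0.944 (Gimap3).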

How the data were processed

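The authors sequenced stranded mRNA libraries of liver, aligned reads to mm10 with STAR 2.5.1b and deposited raw counts, 1 file a mouse. Their methods name htseq-count, while the deposited files carry the name of another counter. Samples were grouped from their labels. The members and gene lists were chosen with earlier results of these data known. Named outside the members were genes of a list past a threshold (at most 4 a list and comparison), defining markers, and the 10 genes most correlated with the core. Symbols come from GENCODE M21 (47310 of 47729 identifiers matched). Counts of 12 livers in 3 groups entered 1 edgeR 4.0.16 quasi-likelihood fit (R 4.3.3, TMM, filterByExpr with a minimum of 10), with Benjamini-Hochberg adjustment over 16823 genes. SE is the fold change over the root of F. The threshold was 0.05 against Healthy and 0.1 for STAM-I-BET151 against STAM-vehicle. DESeq2 1.42.0 and limma-voom 3.58.1 were alternatives. Correlations used log2 CPM (prior count 2). No 2 livers of the same group agreed within sampling noise. The fit was tested on simulated data. Results of some listed genes are not reported here.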

Additional observations from a re-analysis of the deposited data

How the results depend on the processing

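In STAM-vehicle against Healthy livers, where 0 members were called higher, 2 were with DESeq2, with and without STAM-I-BET151 mouse 3 (the latter chosen after seeing the data), with only the 2 groups compared and with an adjusted p of at most 0.1, and 5 with limma-voom and sample weights. Leaving out each mouse in turn gave 0 to 2. In STAM-I-BET151 against STAM-vehicle livers, 4 members were called lower with limma-voom and 4 with DESeq2 without mouse 3, and leaving out each mouse gave 0 to 1, the 1 being without mouse 3. In STAM-I-BET151 against Healthy livers, limma-voom called 1 member higher, and leaving out each mouse gave 0 to 1. All 176 values of STAM-I-BET151 against STAM-vehicle in the 22 settings were negative, and 172 of 176 of STAM-vehicle against Healthy were positive. The 4 others came with the sequencing lane as a covariate, at -0.35 (H2-Aa), -0.18 (H2-Ab1), -0.14 (H2-Eb1) and -0.13 (Cd74), a fit in which 0.196% of all genes were called higher and where 1 of 6 lanes held all 3 groups. In STAM-I-BET151 against Healthy livers 3 members close to 0 changed sign. H2-Aa went to 0.056 with upper-quartile normalization and 0.0058 with at least 10 counts in every library, and leaving out each mouse gave -0.42 to 0.17. H2-Eb1 went to -0.036 with DESeq2, -0.081 with limma-voom, -0.018 with RLE normalization, -0.022 with no filter, -0.070 with the replicate block, -0.63 with lane and -0.29 with DESeq2 without mouse 3, and leaving out each mouse gave -0.29 to 0.22. H2-DMa went to 0.067 with limma-voom and 0.030 with upper-quartile normalization, and leaving out each mouse gave -0.12 to 0.082. The cause was not tested.

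The groups share replicate numbers 1 to 4, but same-numbered mice did not deviate together (mean r of -0.07, -0.06 and -0.15 in the 3 comparisons), so the numbers do not pair the samples. With the replicate block 0 members were called in any comparison, and 742 of all genes in STAM-vehicle against Healthy, 10 in STAM-I-BET151 against STAM-vehicle and 1573 in STAM-I-BET151 against Healthy livers, against 1195, 59 and 2546 without it. Ciita rested on 34 to 192 counts a liver.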
